A study of Mus musculus with 2 samples.

Results

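Expression of 57 genes of the lysosome and of autophagy was compared between small intestinal epithelium of 1 control mouse and 1 mouse deleted for Myh9, the heavy chain gene of non-muscle myosin IIA. The genes were all rows of the deposited table, out of 12631, whose symbol names a cathepsin (Cts and a letter), a subunit of the vacuolar proton pump (Atp6v), a Lamp protein or an autophagy-related gene (Atg), together with Tfeb, Sqstm1, Map1lc3a, Map1lc3b, Gabarap, Gabarapl1, Gabarapl2, Becn1, Ulk1, Wipi1 and Npc1. The rule itself uses symbols and no measured value. The control was a wild type C57BL/6 mouse and the knockout a Myh9-/- C57BL/6 mouse, both 8 weeks old. Both received tamoxifen daily on 5 days, so the drug is shared by the groups, and RNA was taken at day 5. The promoter that drove the deletion, and the cells in which it acted, are not given in the sources used here. With 1 sample in each group, the values carry no replicate error, no test was possible, and every difference is between these 2 libraries.

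Lysosomes are acidic compartments in which cathepsins and other hydrolases degrade cargo. The vacuolar proton pump acidifies them: its cytosolic V1 sector hydrolyses ATP and turns a rotor that drives protons through the membrane-embedded V0 sector. Autophagy encloses cytoplasm in a double membrane, marked by lipid-linked LC3 and GABARAP proteins, and delivers it to the lysosome. In the intestine autophagy genes are known for their part in Paneth cell granules and in limiting epithelial cell death. The transcription factor Tfeb drives many lysosomal and autophagy genes through the CLEAR element, a palindrome around the letters CACGTG.

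Epithelial markers were present in both samples. The 8 epithelial markers, among them Epcam, Vil1 and Cdh1, had a summed level of 7513 in the control sample and 7508 in the knockout sample. The 7 measured stromal markers summed to 40.9 and 40.8. Myh9 itself was 99.5 in the control sample and 13.6 in the knockout sample, in the direction of the labels. Levels are the deposited values less the 1 that had been added to each. Their unit, and whether it is per transcript length, is not stated, so levels of different genes are not ranked against each other. A fold is the ratio of level plus 1. A gene is called when this ratio reaches 1.4-fold, the threshold that the labels give, and was included when the larger of its levels was at least 1. Of the 7 stromal markers, 3 were higher and none lower, 42.9% called. Over all included genes 15.9% were higher. The 3 were Col3a1 (4.25 and 8.18), Acta2 (0.748 and 2.51) and Lum (0.387 and 1.06). Acta2 and Lum had a control level below 1, so their inclusion rested on the knockout and fixed their direction. In bulk tissue, fewer cells of a type and less RNA per cell cannot be told apart.

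Most of the lysosome and autophagy genes lay close to the control level in the knockout. All 57 were above 0 in both samples and all 57 had a larger level of at least 1. Of these, 4 were higher (Atg9b, Ctsl, Gabarapl1 and Atp6v0a1), 4 were lower (Ctsw, Atg10, Wipi1 and Tfeb) and 49 lay between, so 14.0% were called. Over all 12152 included genes, 32.3% were called, with 15.9% higher and 16.3% lower. At a 2-fold threshold 3 of the 57 were higher and none lower, 5.26% called, against 8.77% of all included genes. The log2 fold had a median of 0.02 in the 57 and of -0.0037 in all included genes. The median size of the log2 fold, whatever its sign, was 0.21 in the 57 and 0.31 in all included genes. Of the 57, 36 differed by less than 1.2-fold, which is 63.2%, against 43.4% of all included genes.

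**Figure D1:**
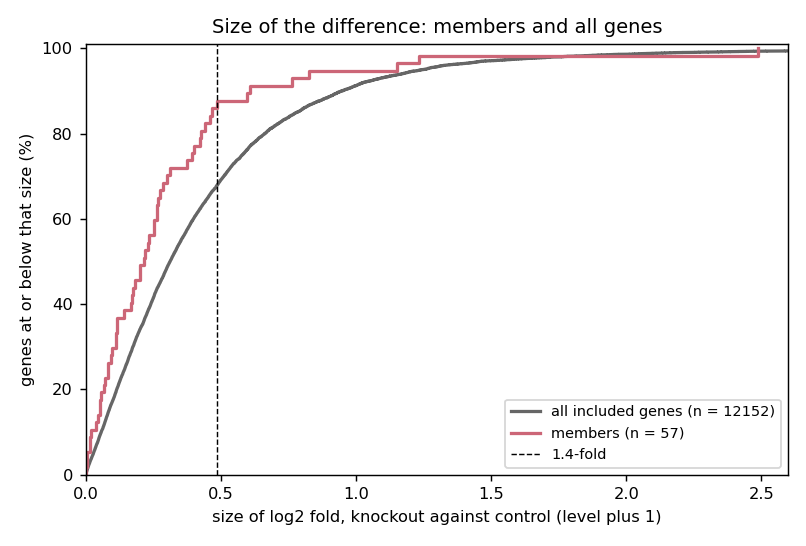
Cumulative percent of genes (vertical axis) by the size of the log2 fold between knockout and control on level plus 1 (horizontal axis, cut off above 2.6), for the 57 members and for all 12152 included genes; the dashed line is 1.4-fold. The curve of the members lies above that of all genes at the dashed line, with 14.0% of members and 32.3% of all genes at or beyond it.

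The gap to the share over all genes was widest at high levels. Where the larger level reached 5, 7 of 49 members were called, 14.3%, against 30.6% of all such genes. Where it reached 20, Atp6v0a1 alone of 32 members was called, 3.13%, against 30.8%. The summed level of the 57 genes was 2669 in the control sample and 2711 in the knockout sample, which was 0.398% and 0.427% of the listed totals. The split depended on the scaling of the libraries. When the knockout was multiplied by 1.08, so that totals matched once the mitochondrial genome and the top 20 genes were left out, 8 members were higher and 3 lower, and the share of higher genes among all called genes went from 49.4% to 61.4%.

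**Figure D2:**
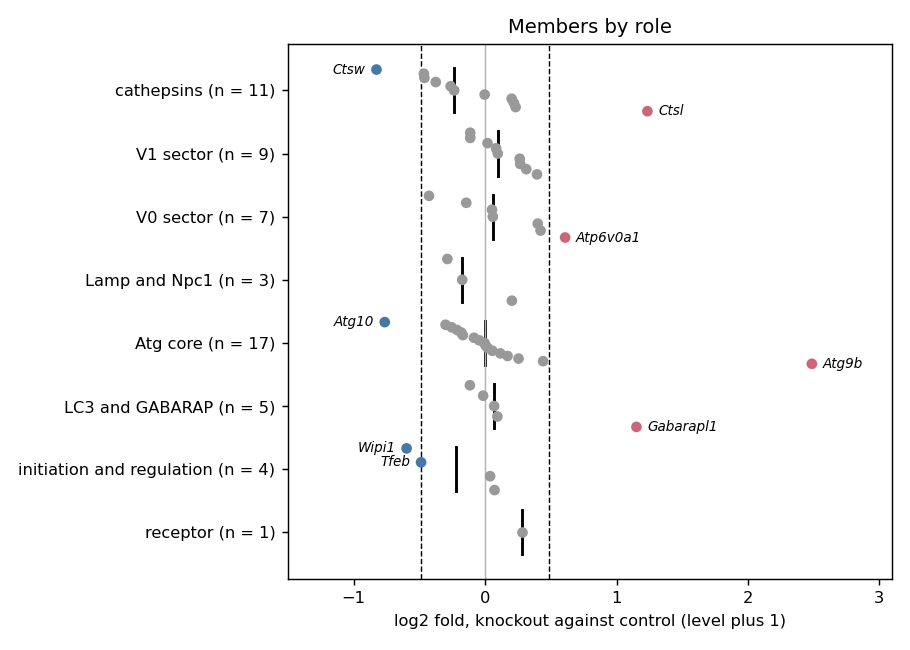
Log2 fold between knockout and control on level plus 1 (horizontal axis) for each of the 57 members, grouped by role (vertical axis, with the number of genes); 1 point is 1 gene, black bars are group medians, dashed lines are 1.4-fold, and named points lie beyond them. The named genes are Ctsl, Atp6v0a1, Atg9b and Gabarapl1 on the higher side and Ctsw, Atg10, Wipi1 and Tfeb on the lower side.

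Tfeb, the transcription factor of the lysosomal programme, was 8.55 in the control sample and 5.81 in the knockout sample. That is 1.40-fold lower, a log2 fold of -0.49, and it is the member nearest to the threshold from outside. It lay inside the threshold under both scalings that raised the knockout. Ctsh and Ctsa, each 1.38-fold lower, were the nearest from inside. Tfe3, a related factor that binds the same element, was 11.6 and 13.5. The other factors of that family, Mitf and Tfec, had no row in the table.

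The promoters of the members were searched for the Tfeb element, on both strands, since each of the searched words is its own reverse complement. RefSeq promoter windows of 300 bases on GRCm38.p6, the assembly that mm10 denotes, running from 250 bases before to 50 after a start, were at hand for 44 of the 57 genes. The letters CACGTG stood in the windows of 13 of these 44 genes, 29.5%, against 11.8% of the 9073 genes of the expression table that had a window. The longer word TCACGTGA, which contains CACGTG, stood in 6 of 44, 13.6%, against 2.19%. The full CLEAR palindrome, TCACGTGA between a G and a C, stood in none of the 44 and in 0.838% of the 9073. The windows below run from 150 bases before to 25 after a RefSeq start. They are of the 6 genes with TCACGTGA and of Lamp1, which carried 4 copies of CACGTG. They are shown because these genes carry the longer word or the most copies of the shorter one. The shares were not matched for base composition. Capitals mark CACGTG.
Ctsa: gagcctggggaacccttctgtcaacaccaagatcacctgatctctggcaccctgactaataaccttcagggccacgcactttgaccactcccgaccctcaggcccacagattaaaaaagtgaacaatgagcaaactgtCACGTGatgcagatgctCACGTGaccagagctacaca
Ctsd: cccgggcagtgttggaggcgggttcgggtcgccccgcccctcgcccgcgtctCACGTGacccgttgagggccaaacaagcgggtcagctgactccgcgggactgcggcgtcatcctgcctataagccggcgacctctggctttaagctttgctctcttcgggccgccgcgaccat
Lamp1: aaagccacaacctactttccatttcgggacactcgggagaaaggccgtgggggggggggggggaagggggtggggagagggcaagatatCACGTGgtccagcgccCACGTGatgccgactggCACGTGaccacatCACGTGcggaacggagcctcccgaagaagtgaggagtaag
Atp6v0d1: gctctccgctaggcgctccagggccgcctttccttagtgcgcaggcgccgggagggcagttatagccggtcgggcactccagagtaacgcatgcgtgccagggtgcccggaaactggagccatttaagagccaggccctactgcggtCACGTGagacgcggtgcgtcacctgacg
Atp6v0e: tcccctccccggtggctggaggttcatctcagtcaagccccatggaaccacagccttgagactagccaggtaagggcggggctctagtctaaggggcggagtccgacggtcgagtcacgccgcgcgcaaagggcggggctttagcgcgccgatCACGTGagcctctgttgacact
Atp6v1a: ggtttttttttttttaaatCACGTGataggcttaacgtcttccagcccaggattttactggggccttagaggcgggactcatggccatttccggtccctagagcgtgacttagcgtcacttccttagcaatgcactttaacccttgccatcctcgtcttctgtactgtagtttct
Atg3: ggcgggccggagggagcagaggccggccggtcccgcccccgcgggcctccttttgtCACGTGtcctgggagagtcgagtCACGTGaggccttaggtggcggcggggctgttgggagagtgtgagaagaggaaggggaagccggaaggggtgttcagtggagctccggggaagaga
The windows lie at chr2:164833623-164833797 (plus strand) for Ctsa, chr7:142387803-142387977 (minus strand) for Ctsd, chr8:13159011-13159185 (plus strand) for Lamp1, chr8:105566040-105566214 (minus strand) for Atp6v0d1, chr17:26676246-26676420 (plus strand) for Atp6v0e, chr16:44139235-44139409 (minus strand) for Atp6v1a and chr16:45158679-45158853 (plus strand) for Atg3. In the printed Ctsa window 1 copy begins 12 bases before the start and another at base 6 after it. Another Ctsa window, chr2:164832622-164832921, spans the annotated start of the gene (164832873) and held no CACGTG. The printed windows of Atp6v0e and Atp6v1a lie inside the annotated genes and do not reach their starts (26663231 and 44139705). The same holds for the windows of Atg7, Atg14 and Ctsl, which are among the 13 genes with CACGTG. In Lamp1 the copies begin 61, 45, 28 and 15 bases before the start.

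Most genes with the word lay between, as did most of all included genes, of which 32.3% were called. Of the 13 genes with CACGTG, 1 was higher (Ctsl, whose copy lies outside the shorter window), none was lower and 12 lay between. That is 7.69% called, with log2 folds from -0.46 (Ctsa) to 1.23 (Ctsl) and a median of 0.05. The 6 genes with TCACGTGA all lay between, from -0.46 (Ctsa) to 0.42 (Atp6v0e). Of the 31 genes with a window and no CACGTG, 3 were higher and 3 lower, 19.4% called, and the median was 0.0036. A match is a description of the letters in the window and does not show binding.

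Cathepsins, the proteases of the lysosome, held 1 higher and 1 lower gene among 11, 18.2% called against 32.3% of all included genes. The log2 fold was negative in 7 and positive in 4, or 36.4%, against 49.7% positive over all included genes. With the knockout multiplied by 1.08, 6 were negative and 5 positive, or 45.5%, against 58.4% positive over all included genes. The cathepsin median went from -0.24 to -0.13 under that scaling. Ctsl, which encodes the broadly acting cysteine protease cathepsin L, was 6.26 in the control sample and 16.1 in the knockout sample, 2.35-fold higher. It maps to the minus strand of chromosome 13 (64359337 to 64370890, mm10). Ctsw, a cathepsin known from cytotoxic lymphocytes, was 16.7 and 9.00, 1.77-fold lower. It maps to the minus strand of chromosome 19 (5465043 to 5468507). These were the extremes of the family in opposite directions.

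The remaining cathepsins lay within 1.4-fold. Ctsa, a carboxypeptidase that also stabilises lysosomal sialidase and beta-galactosidase, was 97.0 and 70.1. Ctsh, an aminopeptidase, was 75.0 and 54.0. Ctsc, the dipeptidyl peptidase that activates granule serine proteases, was 46.8 and 35.8. Those 3 were below the control value by up to 1.38-fold. Ctsb, an endopeptidase and carboxypeptidase, was 128 and 109. Ctss, which trims the class II invariant chain, was 63.3 and 52.6. Both differed by less than the 3 before them. Ctsd, the aspartic protease, was 150 and 173, and Ctsz, a carboxypeptidase, was 166 and 165. Ctso and Ctsf were at low levels (3.73 and 4.50, and 1.18 and 1.56). The ratio of Ctsl to Ctsb changed 3.03-fold between the samples, from 0.0487 to 0.148; transcript length cancels in that change, not in each ratio.

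Ctsw moved with the lymphocyte markers. Of 11 included markers of lymphocytes, 10 were lower and none higher, 90.9% called against 32.3% of all included genes. The levels of all 12 with a row summed to 1029 in the control sample and 473 in the knockout sample. None of the 12 was at 0 in either sample, and Prf1 had no row. Cd3e was 17.0 and 8.87 and Ptprc was 18.6 and 10.2. The part of lymphocytes in the Ctsw difference was not tested. For Ctsl, a protease that macrophages express too, the 11 macrophage and dendritic cell markers with a row summed to 57.6 and 57.1. Among them 6 were higher and 3 lower, 81.8% called against 32.3% of all included genes. Of the 6, 4 had a control level below 1, so their inclusion rested on the knockout and fixed their direction. None was at 0, Adgre1, C1qa, Cd163, Fcgr1 and Aif1 had no row, Cd68 was 0.266 and 3.02, and Lyz2 was 4.54 and 10.5. The 3 lower markers were Fcer1g (26.3 and 13.7), Itgam (5.68 and 3.75) and Itgax (2.47 and 1.34). Of 6 neutrophil and mast cell markers with a row, 3 were higher and 1 lower, 66.7% called against 32.3% of all included genes. The 6 summed to 21.8 and 26.2. S100a9 and Ly6g were at 0 in the control, so that their inclusion through the knockout fixed their direction. The part of these cells in the Ctsl difference was not tested.

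**Figure D3:**
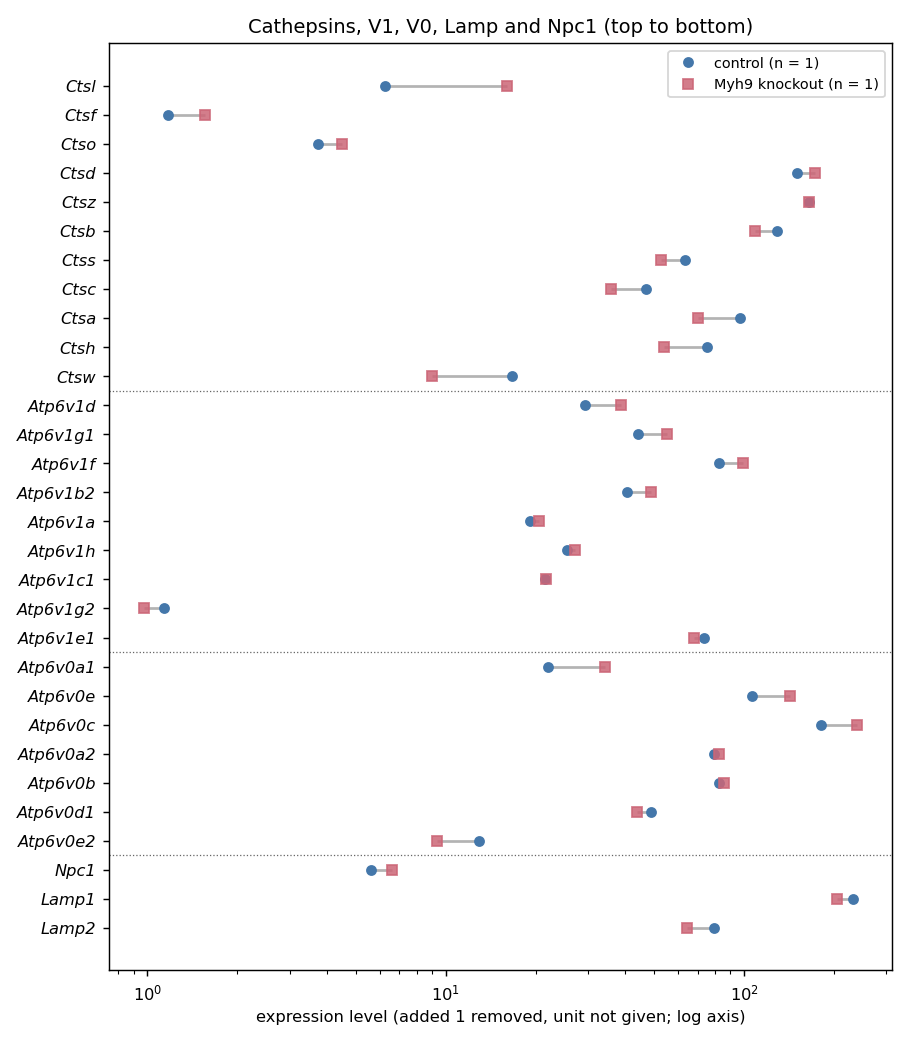
Expression level (added 1 removed, unit not given, log axis) of the cathepsins, the V1 and V0 subunits, the Lamp genes and Npc1 in the control (circles) and the knockout (squares), 1 sample each; dotted lines separate the groups and genes are ordered by log2 fold within each. Ctsl (6.26 and 16.1), Ctsw (16.7 and 9.00) and Atp6v0a1 (22.1 and 34.2) have the longest connecting lines.

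Transcripts of the proton pump lay mostly just above the control level. Of 16 subunit genes, 1 was past the threshold, 6.25% against 32.3% of all included genes. Of the 16, 12 had a positive log2 fold, 75.0%, against 49.7% of all included genes. Under the 3 rescalings 11 or 12 of the 16 were positive, 68.8% to 75.0%, against 46.6% to 58.4% of all included genes. The median of the 16 was 0.09 as deposited, and their summed level was 870 in the control sample and 1018 in the knockout sample. None of the 9 V1 genes was called. Atp6v1a, the catalytic subunit, was 19.1 and 20.5, and Atp6v1b2, its partner in the ATP-hydrolysing ring, was 40.5 and 48.8. The rotor genes Atp6v1d (29.3 and 38.8) and Atp6v1f (82.3 and 99.2) were each above the control value. Among the stalk genes, Atp6v1g1 was 44.1 and 55.0, Atp6v1e1 was 73.6 and 68.0, and Atp6v1g2 was close to 1 in both. Atp6v1c1 (21.4 and 21.7) and Atp6v1h (25.5 and 27.0), which hold or regulate the contact between the sectors, hardly differed.

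In the V0 sector, Atp6v0a1 was the member past the threshold. It encodes an isoform of subunit a, the membrane subunit that forms the proton path with the c ring, and was 22.1 in the control sample and 34.2 in the knockout sample, 1.52-fold higher. The gene is on the plus strand of chromosome 11 (101009452 to 101063719). The isoform gene Atp6v0a2 was 79.3 and 82.6, and Tcirg1, which encodes the a3 isoform, was 27.3 and 28.0. Relative to Atp6v0a2, Atp6v0a1 went from 0.278 to 0.414. Atp6v0c, which encodes the proton-carrying c subunit, was 181 and 239, 1.32-fold above the control value, and Atp6v0e was 106 and 143, 1.34-fold above it. The second e isoform gene, Atp6v0e2, was 12.9 and 9.35, so relative to Atp6v0e it went from 0.121 to 0.0654. Atp6v0b (82.6 and 85.7) and Atp6v0d1 (48.6 and 43.9) stayed within 1.2-fold. With the knockout multiplied by 1.08, Atp6v0c, Atp6v0e and Atp6v1d also passed 1.4-fold. Atp6v0c has 2 named pseudogenes in the annotation, so its value may share reads with them. Of 5 measured partners of the pump outside the Atp6v names, none was called, with Atp6ap1, an assembly factor, at 39.9 and 49.1.

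The membrane proteins of the lysosome lay within the threshold. Lamp1, an abundant glycoprotein that lines the inner membrane face, was 232 in the control sample and 205 in the knockout sample. Lamp2, which also serves chaperone-mediated autophagy, was 79.1 and 64.6. Npc1, the cholesterol exporter, was 5.62 and 6.62. The Lamp genes were thus 1.13-fold and 1.22-fold below the control value and Npc1 1.15-fold above it.

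Among the autophagy genes, the core machinery differed little and 5 of 27 genes were called, 18.5% against 32.3% of all included genes. The upstream kinase gene Ulk1 was 5.06 in the control sample and 5.23 in the knockout sample, and its complex partners Atg13 (14.0 and 11.6) and Atg101 (14.2 and 15.5) lay within 1.4-fold. Becn1, of the lipid kinase complex that starts the membrane, was 78.3 and 82.3, and its partner Atg14 was 2.98 and 2.54. Wipi1, which binds the lipid made by that complex, was 5.83 and 3.51, 1.51-fold lower (chromosome 11, 109573331 to 109611967, minus strand). Of the initiation genes, Wipi1 alone was past the threshold.

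Atg9b had the widest gap of the 57 genes. It encodes a form of the membrane-embedded lipid scramblase Atg9 and was 0.111 in the control sample and 5.23 in the knockout sample, 5.61-fold higher on level plus 1 and 47.1-fold as a plain ratio. Because the control level was below 1, the gene was included through the knockout, which fixed its direction. The paralog Atg9a was 32.2 and 30.3. Atg9b (chromosome 5, minus strand, 24384181 to 24392143) overlaps 294 bases of Nos3 on the opposite strand. Nos3 had no row in the table, and whether counting used strand is not stated. Atg2b, which transfers lipids to the growing membrane, was 4.24 and 6.11, within the threshold on level plus 1 and 1.44-fold as a plain ratio.

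The enzymes that attach LC3 and GABARAP to lipid were near the control level, apart from Atg10. Atg7, which activates Atg12 and LC3 for conjugation, was 18.9 in both. Atg3, which passes LC3 to lipid and carries TCACGTGA in the window printed above, was 19.6 and 23.6. Atg10, which joins Atg12 to Atg5, was 2.33 and 0.958, 1.70-fold lower (chromosome 13, 90935356 to 91223968, minus strand), with the knockout level below 1, so that it was included through the control. Its substrates differed less: Atg12 was 9.02 and 7.83, and Atg5 was 16.1 and 13.7. Atg16l1, the scaffold of that conjugate, was 9.68 and 11.0, and Atg16l2 was 1.68 and 1.72. The 4 Atg4 protease genes, which cut LC3 before and after its use, lay within 1.4-fold, with Atg4d (37.1 and 29.9) the furthest and Atg4a, Atg4b and Atg4c within 1.1-fold. Of the 17 Atg genes, 15 lay within the threshold, so 11.8% were called against 32.3% of all included genes. The median log2 fold of the 17 was -0.0048. With the knockout multiplied by 1.08 it was 0.09, and that of all included genes was 0.097.

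Of the 5 LC3 and GABARAP genes, Gabarapl1 stood apart. It was 5.45 in the control sample and 13.3 in the knockout sample, 2.22-fold higher. The gene is on the plus strand of chromosome 6 (129533160 to 129542346). Its close relatives were near the control level: Gabarap was 267 and 246, Gabarapl2 was 42.7 and 44.8, Map1lc3b was 34.5 and 36.9, and Map1lc3a was 6.82 and 6.74. Relative to Gabarapl2, Gabarapl1 went from 0.128 to 0.297, a 2.33-fold change. Sqstm1, the receptor p62 that links ubiquitinated cargo to LC3, was 51.3 and 62.4, 1.21-fold above the control value and within the threshold.

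**Figure D4:**
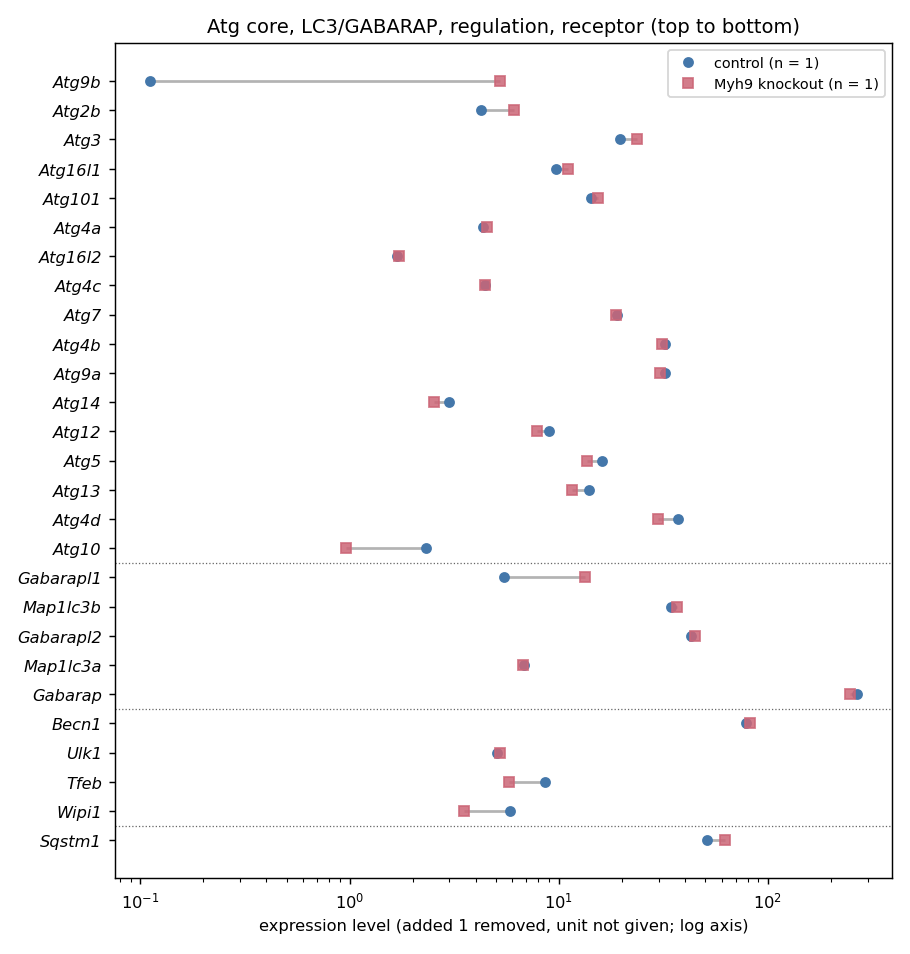
Expression level (added 1 removed, unit not given, log axis) of the Atg genes, the LC3 and GABARAP genes, the initiation and regulation genes and Sqstm1 in the control (circles) and the knockout (squares), 1 sample each; dotted lines separate the groups and genes are ordered by log2 fold within each. Atg9b (0.111 and 5.23), Gabarapl1 (5.45 and 13.3) and Atg10 (2.33 and 0.958) have the longest connecting lines.

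Genes of the same pathways outside the 57 were taken from 10 lists of 129 genes. Of the 120 included, 9 were higher and 19 lower, so 23.3% were called, against 32.3% of all included genes. Lysosomal hydrolases other than cathepsins differed in both directions, with 5 of 31 higher, 5 lower and a median log2 fold of -0.16. Lgmn, the asparaginyl endopeptidase that processes several cathepsins, was 13.2 in the control sample and 51.9 in the knockout sample, 3.72-fold higher. Gusb, which encodes beta-glucuronidase, was 14.5 and 30.2, and Lipa, the acid lipase, was 8.50 and 17.7. On the lower side, Hexa, which encodes a lysosomal glycosidase subunit, was 81.9 and 50.8, and Naglu, another glycosidase, was 6.95 and 3.62. Hydrolases were thus called in 32.3% of cases, close to the share over all genes.

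Lysosomal membrane and lipid transfer proteins held 5 lower and no higher genes among 16, 31.2% called against 32.3% of all included genes, with a median log2 fold of -0.24. Psap, the precursor of the saposins that help hydrolases act on lipids, was 220 and 132, Laptm5, a membrane protein of blood cells, was 25.1 and 14.6, and Cln3 was 13.3 and 9.08. Laptm5 stands beside the lower lymphocyte markers given above, and their part in its value was not tested. Of 5 cathepsin inhibitor genes, Cstb, which encodes cystatin B, was 97.6 and 148, Serpinb1a was 245 and 345, and Cst3, which encodes the secreted cystatin C, was 114 and 60.9. In the list for mannose 6-phosphate and related sorting to the lysosome, 1 of 9 was called, 11.1%. It was Sort1, a sorting receptor, at 37.3 and 20.4. The mannose 6-phosphate receptor genes M6pr (51.5 and 51.5) and Igf2r (14.6 and 15.4) lay within the threshold.

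Nutrient sensing genes at the lysosome held 1 higher and 1 lower gene of 15, 13.3% called against 32.3% of all included genes. The Rag GTPase genes, whose products recruit mTORC1 to the lysosome, included both, with Rraga at 16.4 and 26.2 and Rragd at 18.2 and 9.42, while Rragc, at 13.7 and 15.1, lay within the threshold. Of 14 further genes of autophagy initiation, 2 were lower and none higher (14.3% called). Wdr45, a relative of Wipi1, was 21.0 and 10.5, and Rubcn, a brake on the lipid kinase complex, was 11.6 and 6.25. Of 11 further receptors, 2 were lower and none higher (18.2% called). Fam134b, the receptor for endoplasmic reticulum, was 8.11 and 2.22, and Calcoco1 was 5.56 and 2.26. Of 13 genes of autophagosome fusion, 1 was higher and 2 lower (23.1% called). Stx17, the autophagosomal SNARE, was 9.80 and 4.63, its partner Snap29 was 16.2 and 10.8, and the adaptor Plekhm1 was 5.07 and 9.02.

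**Figure D5:**
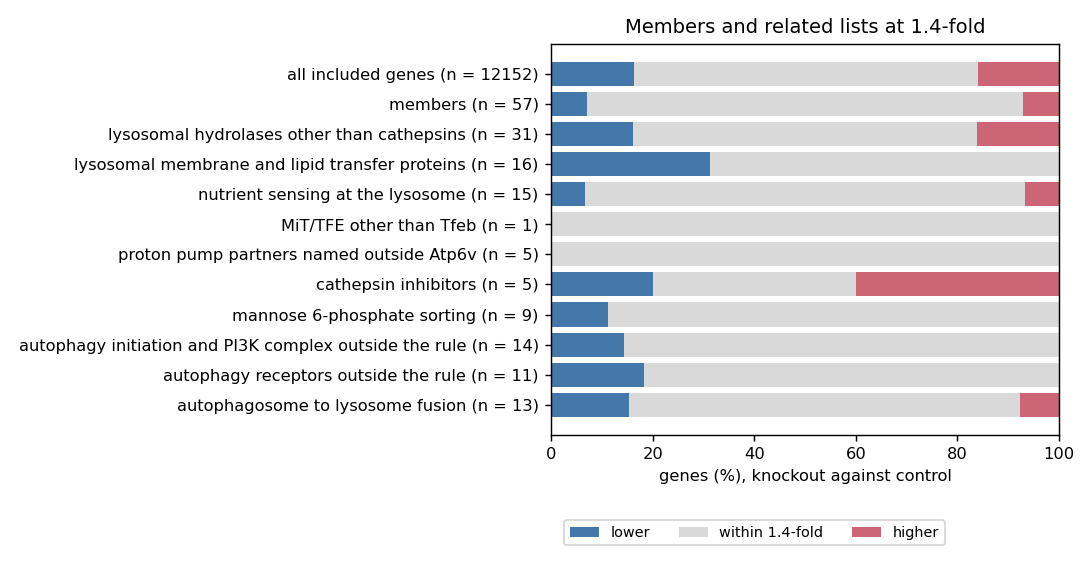
Percent of included genes (horizontal axis) that were lower, within 1.4-fold or higher in the knockout, for all 12152 genes, the 57 members and 10 related lists (vertical axis, with the number of included genes). The members have a smaller called share (14.0%) than all genes (32.3%), and 6 of the 10 related lists hold no higher gene.

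Markers of Paneth cells, in which autophagy genes are best known in this tissue, held 7 lower and no higher genes among 8. That is 87.5% called, against 32.3% of all included genes, with summed marker levels of 14154 and 7924. Defa24 was 8707 and 4925, and Lyz1 was 2797 and 1653. Mmp7, the marker that was not called, was above the control value, at 146 and 179. Atg16l1, Atg5 and Atg7 were within 1.4-fold as given above. Ileal enterocyte genes split, with 3 of 5 higher and 2 lower, 100% called against 32.3% of all included genes. Of the 3, Slc10a2 (0.572 and 5.09) had a control level below 1, so its inclusion rested on the knockout and fixed its direction. Fabp6 was 125 and 741, whereas Cubn and Amn, the endocytic receptor pair whose cargo goes to lysosomes, were 25.7 and 4.05 and 133 and 67.7. The part of these cell types or of intestinal position in the lysosomal values was not tested.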

How the data were processed

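RNA from 2 samples was sequenced on an Illumina instrument, per the labels' protocols. The submitters' processing notes list HISAT2, StringTie and mm10 and give no versions or roles. The authors deposited 1 signal value per gene and sample, an expression level of unstated unit with 1 added, and a fold change, a ratio of the knockout to the control value that was recomputed for every gene (largest relative difference 4.88e-07). Columns were matched to samples by the animal number in the titles. Depth is unknown; the levels summed to 671114 and 634492, and no interval could be given.

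Levels are the deposited values minus 1. Rows with a larger level of at least 1 were included (12152 of 12631), folds used a pseudocount of 1, and calls the 1.4-fold threshold of the labels. All members were named by role; in related lists, up to 3 genes per direction with the largest fold at a larger level of at least 5; some list members are not reported here. The members, lists and rules were chosen with earlier results of these data known. The word TCACGTGA was added to the planned motif words. Gene positions are from GENCODE M21 (GRCm38), in which all 57 symbols were found, and promoters from RefSeq (GRCm38.p6). Python 3.11.15, pandas 2.3.3 and NumPy 2.4.6 were used. As alternatives, the pseudocount was set to 0.1 or left out, the filter was removed or raised to 5, the threshold was raised to 2-fold and the knockout was rescaled in 3 ways.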

Additional observations from a re-analysis of the deposited data

How the results depend on the processing

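Of the 8 called members, Atg9b, Ctsl and Gabarapl1 kept their call under every alternative run. For Atg9b, at 0.111 in the control sample, each level filter was passed through the knockout alone, which fixed its direction. Atp6v0a1, Ctsw and Wipi1 lost it at a 2-fold threshold alone, which left 3 members higher and 0 lower and, in the related lists, 2 higher and 4 lower. Atg10 also dropped out at a level of at least 5, and Tfeb under the median rescaling and the rescaling that left out the mitochondrial genome and the top 20 genes. That last rescaling raised the number of higher members to 8, adding Atg2b, Atp6v0c, Atp6v0e and Atp6v1d. The upper quartile rescaling added Ctsa and Ctsh to the lower members. Over all settings at 1.4-fold, members were called in 12.3% to 19.3% of cases and all rows in 30.6% to 38.4%. Without a pseudocount the log2 fold of Atg9b was 5.56 and that of Atg10 -1.28; with 0.1 they were 4.66 and -1.20. The medians of the role groups and related lists moved by less than 0.24 (log2) under each alternative run. No called member changed its direction under an alternative run. No paired analysis was possible because each group held 1 sample. Without replicates or a known depth, the error of low levels such as those of Atg9b and Atg10 is unknown.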

Other observations

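Atg101 and Atp6v1c1 lie on chromosome 15, which also holds Myh9, and neither was called (14.2 and 15.5, and 21.4 and 21.7). In the annotation, 16 of the 57 members overlap another gene that has a row in the table, and of the 8 called members Ctsw alone does, sharing 9 bases with Fibp on the opposite strand (49.7 and 46.4).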
